A study of Homo sapiens with 136 samples.

Results

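The libraries described here come from pancreatic cancer cells given ravoxertinib, an inhibitor of the kinases ERK1 and ERK2, on top of an inhibitor of autophagy. They were picked by their titles, by a rule that used no measured values. The rule took every library of Ravoxertinib-Hydroxychloroquine or Ravoxertinib-VSP34I. This gave 4 libraries of the line ASPC1 and 4 of the line PANC1, out of 68 libraries of each line. The drug groups, gene lists and tests were set with earlier results of these data known. ASPC1 and PANC1 (AsPC-1 and PANC-1 below) are established human cell lines from pancreatic ductal adenocarcinoma, and each stands for 1 tumour only. In each line, 2 ravoxertinib libraries also received hydroxychloroquine and 2 received Compound 19, an inhibitor of the lipid kinase Vps34, written VSP34I in the titles. In either pair, 1 library was on plate A and 1 on plate B. They were compared with the 12 libraries of the same line that received hydroxychloroquine alone (6 libraries) or the Vps34 inhibitor alone (6 libraries), and then with the 12 libraries of the line that received SCH772984, ulixertinib or AZD0364, the study's other ERK inhibitors, with the same autophagy inhibitors (4 libraries each). All groups used here, the controls included, were therefore exposed to an autophagy inhibitor, and no comparison involves untreated cells. Cells grew for 24 h before 24 h of treatment, and each drug was used at the concentration that left 80% of cells viable after 48 h on its own. The concentrations themselves are not given in the labels, so a difference between ERK inhibitors cannot be told apart from a difference in dose.

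As background, ERK1 and ERK2 are the last kinases of the RAS, RAF and MEK relay, through which growth factor receptors and mutant RAS proteins drive division in most pancreatic cancers. Active ERK enters the nucleus, where it raises transcription of immediate early genes such as EGR1 and FOSL1, of cyclin D1 and of ETS factors, and it also raises its own brakes, the phosphatases DUSP4, DUSP5 and DUSP6 and the Sprouty proteins. Ravoxertinib competes with ATP in the active site of both ERKs. Hydroxychloroquine raises lysosomal pH and blocks the last step of autophagy, whereas Vps34 makes the lipid that starts the autophagosome. Pancreatic cancer cells are known to use autophagy more when the ERK relay is blocked, and the series combined inhibitors of RAF, MEK or ERK with either autophagy inhibitor.

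The 8 ravoxertinib libraries held between 2100698 and 5620761 counts, and all libraries of both lines held between 1419228 and 5871860. Levels are given as CPM, a gene's counts scaled to the same total in every library, which is not corrected for transcript length and is therefore compared only within a gene. Changes are log2 fold changes ± SE, with the plate as a term of the fit, and a gene was called changed at an adjusted p under 0.05 (edgeR's quasi-likelihood test, two-sided, Benjamini-Hochberg over all genes tested). As a check of the labelled origin, 7 of 8 markers of pancreatic duct cells passed the filter on low counts in each line. Of all 25435 genes, 12761 passed that filter in AsPC-1 and 12627 in PANC-1. None of 7 endothelial and none of 9 acinar and islet markers passed it. Of 12 immune markers 3 passed in AsPC-1 and 1 in PANC-1, with no call among them against the autophagy inhibitor alone. Fibroblast markers, also set for this check, are not reported here, so the check is not complete. Messenger RNA of mitochondrial DNA took 23.0% to 32.7% of counts in the ravoxertinib libraries of AsPC-1 and 23.8% to 30.05% in those of the autophagy inhibitor alone. In PANC-1 the shares were 17.3% to 19.4% and 18.2% to 22.2%. Split by autophagy inhibitor, AsPC-1 had 31.1% and 32.7% with ravoxertinib and the Vps34 inhibitor, above its controls (27.9% to 30.05%). PANC-1 had 17.6% and 17.3% with ravoxertinib and hydroxychloroquine, below its controls (18.2% to 21.5%). The other pairs overlapped their controls. Nothing in the labels says that the wells of a group were separate cultures, so p-values measure only the spread between these libraries, which may be technical. In these bulk samples a change in every cell and a change in the share of cells in some state cannot be told apart.

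In AsPC-1, adding ravoxertinib raised 948 genes (7.43% of the 12761 tested) and lowered 928 (7.27%). ERK targets had the lowest median of the pathway lists, and some genes of DNA replication, mitosis and ribosome assembly fell too, by less. Epithelial, antioxidant, interferon-response and lipid synthesis genes rose. All 4 ravoxertinib libraries lay above all 12 of the autophagy inhibitor alone at 261 genes (2.05%) and below them at 303 (2.37%).

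Of 9 measured members of the list of ERK transcriptional targets, 7 fell, none rose and the median change was -1.46, beside -0.04 over all genes tested. SPRY4 (chromosome 5, 142310427 to 142326455, minus strand of GRCh38), a Sprouty protein that damps receptor signalling, had 8.23 and 15.1 CPM with hydroxychloroquine and 10.3 and 9.71 CPM with the Vps34 inhibitor. Without ravoxertinib its lowest level was 62.1, its median 109 and its highest 189.9 CPM, so the groups were well apart, and the change was -3.42 ± 0.22 (adjusted p = 2.0e-19). DUSP6 (chromosome 12, 89347232 to 89353271, minus strand), the phosphatase that removes the activating phosphates from ERK, had 10.7, 7.18, 6.86 and 10.1 CPM, against a lowest, median and highest of 46.8, 70.9 and 90.0 CPM alone. This too left a wide gap, with a change of -2.99 ± 0.27 (adjusted p = 5.4e-13). PHLDA1, a protein that marks ERK output in transcript signatures of pathway activity, had 100.4 and 75.4 CPM with hydroxychloroquine, 61.3 and 43.7 CPM with the Vps34 inhibitor and 205 to 349 CPM alone. It fell by 2.04 ± 0.12 on the log2 scale (adjusted p = 1.1e-20). DUSP4 (-1.56 ± 0.13), ETV5 (-1.46 ± 0.35), EPHA2 (-1.22 ± 0.22) and CCND1, which encodes cyclin D1 (-1.07 ± 0.19), also fell, but the ravoxertinib values of ETV5, EPHA2 and CCND1 reached into the range of the controls. SPRY2 (-0.47 ± 0.35, adjusted p = 0.45) and ETV4 (-1.24 ± 0.52, adjusted p = 0.10), both of low level, did not pass the test. ETV5 leaned on its Vps34 inhibitor pair: the change was -1.01 ± 0.37 without the plate B library (adjusted p = 0.076) and -2.69 ± 0.50 without the plate A library.

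Promoters of 2 genes that fell in both lines are printed because their letters hold sites of the factors through which ERK is known to act on transcription. Each is the 250 bases upstream of the RefSeq transcription start (GRCh38.p14), 5′ to 3′ on the gene's strand, with the motif in capitals. EGR1 lies on the plus strand, chr5:138465229-138465478, and its capitals mark 2 CArG boxes, the element bound by serum response factor, which works with ETS partners that ERK phosphorylates. PHLDA1 lies on the minus strand, chr12:76031777-76032026, and its capitals mark 1 ETS core, CCGGAA, here on the opposite strand. The PHLDA1 window lies inside the gene as annotated in GENCODE v29 (76025447 to 76033932), so the start depends on the annotation.
EGR1: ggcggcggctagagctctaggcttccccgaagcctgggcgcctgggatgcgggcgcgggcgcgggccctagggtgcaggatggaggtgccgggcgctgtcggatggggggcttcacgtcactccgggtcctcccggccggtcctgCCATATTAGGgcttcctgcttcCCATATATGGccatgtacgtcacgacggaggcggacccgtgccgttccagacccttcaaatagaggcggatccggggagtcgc
PHLDA1: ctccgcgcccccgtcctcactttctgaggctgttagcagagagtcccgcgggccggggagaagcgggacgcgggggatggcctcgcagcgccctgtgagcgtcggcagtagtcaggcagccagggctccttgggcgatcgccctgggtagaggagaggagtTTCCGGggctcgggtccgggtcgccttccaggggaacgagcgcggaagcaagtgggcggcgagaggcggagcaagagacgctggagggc
A CArG box (searched as CC, 6 bases of A or T, GG, on both strands) was in 1.16% of all 35116 promoter windows of this length, and CCGGAA or its complement in 14.5%. A match describes letters and is not evidence of binding.

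Among 12 other phosphatases and feedback inhibitors, 4 fell and none rose. ERRFI1, an inhibitor of the EGF receptor, fell by 1.41 ± 0.16, DUSP7 by 1.20 ± 0.21 and SPRED2 by 0.74 ± 0.22. The call of SPRED2 was lost when any 1 of the 4 ravoxertinib libraries was left out (adjusted p from 0.054 to 0.077). Of 33 immediate early genes and subunits of AP-1, 11 fell and 2 rose, the latter a smaller share than the 7.43% of all genes called higher. FOSL1, the AP-1 subunit FRA1, had 73.4 and 47.4 CPM with hydroxychloroquine and 23.5 and 26.9 CPM with the Vps34 inhibitor, where the controls ran from 232 through a median of 358 to 537 CPM (-3.15 ± 0.16, adjusted p = 2.0e-24). FOSL2, a related AP-1 subunit, rose by 1.504 ± 0.17.

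EGR1 had control levels that differed between the 2 autophagy inhibitors. Its level was 18.2 to 34.5 CPM under hydroxychloroquine alone and 1.53 to 8.81 CPM under the Vps34 inhibitor alone, and with ravoxertinib it was 3.22 and 2.87 CPM in the first and 0.980 and 4.85 CPM in the second. Over both autophagy inhibitors EGR1 fell by 2.09 ± 0.39 (adjusted p = 3.9e-05). Under hydroxychloroquine it fell by 3.24 ± 0.54, and under the Vps34 inhibitor the change was -0.94 ± 0.57 (adjusted p = 0.37), with 1 of the 2 ravoxertinib values inside the range of its controls and 1 below it. The difference between these changes, 2.30 ± 0.79, did not pass the test (adjusted p = 0.34).

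**Figure D1:**
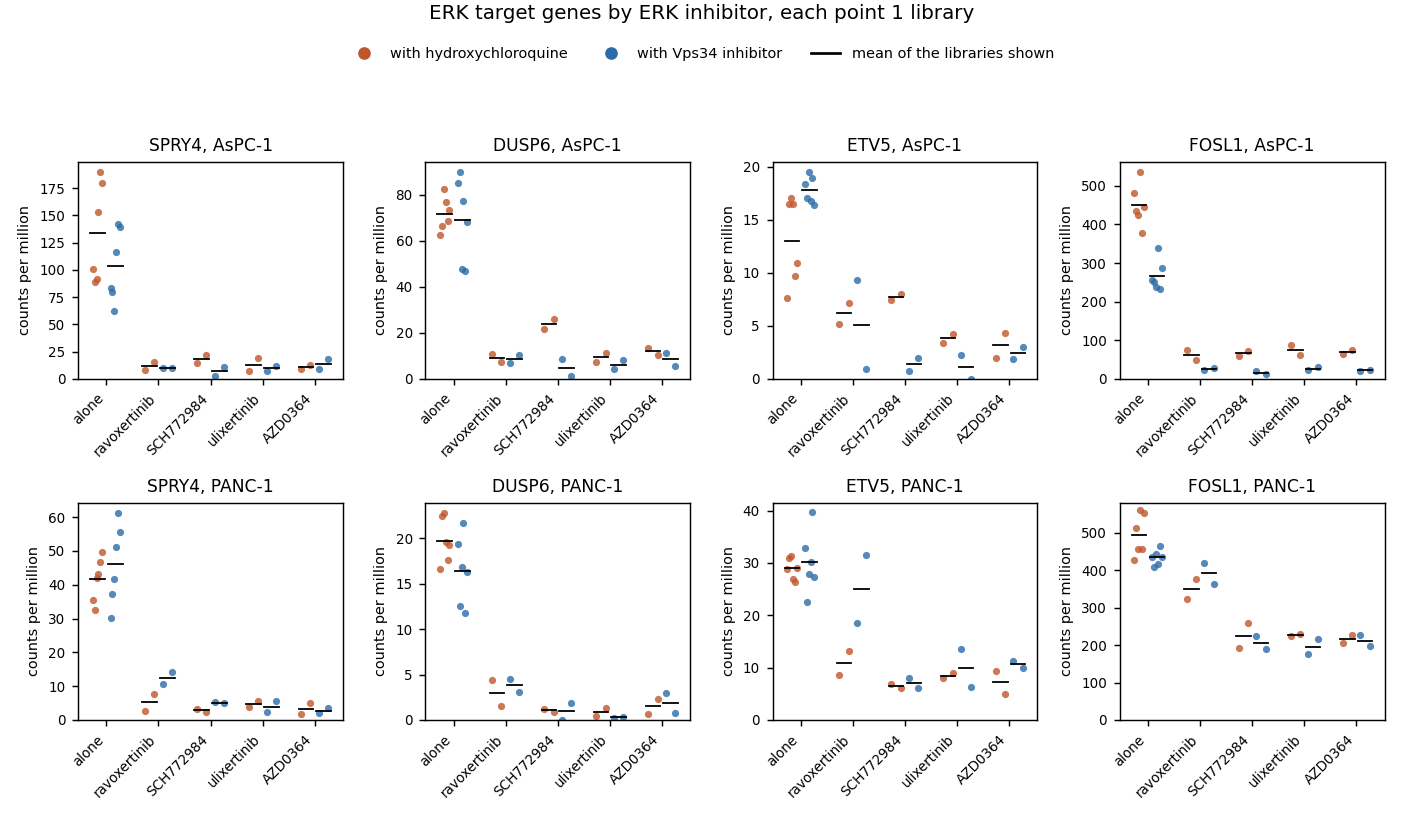
Levels of SPRY4, DUSP6, ETV5 and FOSL1 in CPM (vertical axis, linear from 0) in AsPC-1 and PANC-1, for the autophagy inhibitor alone, ravoxertinib and the 3 other ERK inhibitors (horizontal axis). Each point is 1 library, coloured by autophagy inhibitor, and each black line is the mean of the libraries of 1 drug and 1 autophagy inhibitor; FOSL1 in PANC-1 under ravoxertinib (323 to 420.0 CPM) lies above the other 3 drugs, whereas in AsPC-1 the ranges of the 4 drugs overlap (12.8 to 88.7 CPM).

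Receptor tyrosine kinases fell in AsPC-1: 6 of 19 measured members and their partners were lower and 1 was higher. EGFR had 248 and 185 CPM with hydroxychloroquine and 129.8 and 134 CPM with the Vps34 inhibitor, against 266 to 654 CPM alone (-1.25 ± 0.16). FGFR1 (-1.398 ± 0.19) and MET (-0.86 ± 0.18), receptors for fibroblast and hepatocyte growth factors, lay below all 12 controls as well. The genes of the relay itself moved little, with 2 of 24 higher and none lower. MKNK2, a kinase that ERK activates and that phosphorylates the translation factor eIF4E, rose by 0.59 ± 0.10, and MAPK3, which encodes ERK1, by 0.63 ± 0.22. MAPK3 was not called in 8 of the fits that left out 1 library, among them those without the plate A library of hydroxychloroquine (0.38 ± 0.27, adjusted p = 0.44) and without the plate B library of the Vps34 inhibitor (0.46 ± 0.27). Of the EGF family ligands, cytokines and chemokines, 5 of 19 rose and 4 fell, among them the EGF receptor ligand AREG (-1.08 ± 0.17) and the neutrophil chemokine CXCL5 (2.7475 ± 0.45).

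The genes of growth and division fell by smaller steps. Of 44 measured genes of G1/S and DNA replication, 12 fell and none rose (median -0.41), and of 50 mitotic genes 9 fell and none rose (median -0.33). Taken by autophagy inhibitor, none of the mitotic genes was called under hydroxychloroquine (median -0.14) and 10 fell under the Vps34 inhibitor (median -0.43), while the test of the difference called none of them (median -0.39). The G1/S list had 5 falls under either (medians -0.41 and -0.38). RRM2 (chromosome 2, 10120698 to 10131419, plus strand), the small subunit of ribonucleotide reductase, had 49.2, 41.3, 43.1 and 54.3 CPM against a lowest, median and highest of 62.9, 82.4 and 131 CPM alone, with no overlap (-0.91 ± 0.15, adjusted p = 2.1e-06). PCNA, the sliding clamp of DNA polymerase, had 157 and 180.3 CPM with hydroxychloroquine and 221 and 278 CPM with the Vps34 inhibitor. The controls of PCNA ran from 234 to 424 CPM, which 1 of the 4 values reached (-0.67 ± 0.10, adjusted p = 1.1e-06). MCM7 of the replicative helicase (-0.71 ± 0.14), CDK1, the mitotic kinase (-0.60 ± 0.12), its cyclin CCNB1 (-0.50 ± 0.09) and the spindle checkpoint gene BUB3 (-0.60 ± 0.12) also fell. Ribosome biogenesis showed the largest share of calls among these lists, with 21 of 54 genes lower and none higher (median -0.47): the RNA helicase DDX21 fell by 0.79 ± 0.12, DKC1, which modifies ribosomal RNA, by 0.75 ± 0.13 and EBNA1BP2 by 0.64 ± 0.11.

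Epithelial genes rose: 18 of the 28 that were measured rose and none fell, with a median of 0.67. AGR2, a protein disulfide isomerase of mucus-secreting cells, had 61.4 and 57.8 CPM with hydroxychloroquine and 71.1 and 112 CPM with the Vps34 inhibitor, where the controls ran from 4.03 through a median of 9.58 to 15.0 CPM (2.95 ± 0.18, adjusted p = 5.6e-20). ELF3, an epithelial ETS factor, had 193 to 238 CPM against 41.0 to 75.9 CPM (1.81 ± 0.10), and the tight junction protein CLDN3 had 25.5 to 70.0 CPM against 7.08 to 18.6 CPM (2.09 ± 0.17). All 3 genes were thus above every control library. Of 23 mesenchymal genes 7 fell and 1 rose. VIM (vimentin) had 1412 and 1362 CPM with hydroxychloroquine and 956 and 1006 CPM with the Vps34 inhibitor, far below the 2661 to 3434 CPM of the controls (-1.36 ± 0.07, adjusted p = 1.5e-22). The transcription factor SNAI2 (-1.75 ± 0.19) and the hyaluronan receptor CD44 (-0.80 ± 0.10) fell with it.

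Of 33 measured targets of NRF2, the factor of the oxidative stress response, 21 rose and 1 fell (median 0.50). The largest changes were in the aldo-keto reductases: AKR1C2 had 5273 and 5665 CPM with hydroxychloroquine and 5145 and 6408 CPM with the Vps34 inhibitor, against a lowest, median and highest of 549, 876 and 1555 CPM (2.72 ± 0.07, adjusted p = 1.9e-38). AKR1C1 (2.80 ± 0.16) and AKR1C3 (1.99 ± 0.09) rose with it. These genes stand side by side on chromosome 10 and are near-identical in sequence, so reads may be shared between them and their separate values are uncertain. NQO1, a quinone reductase with no such neighbour, rose by 0.75 ± 0.07.

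Cholesterol and fatty acid synthesis had 34 measured genes, of which 12 rose and 1 fell. SCD, the desaturase that makes oleate, had 559, 431, 543 and 388 CPM against 111 to 261 CPM alone (1.403 ± 0.11, adjusted p = 3.9e-15), and INSIG1, which restrains sterol synthesis, rose by 1.76 ± 0.20. Of 52 interferon-response and antigen presentation genes, 25 rose and 1 fell (median 0.60). GBP1, a guanylate-binding protein, had 11.3, 14.7, 13.2 and 10.6 CPM where no control exceeded 1.73 CPM (3.75 ± 0.40), the transcription factor IRF1 rose by 1.57 ± 0.22 and B2M, the light chain of class I molecules, by 0.69 ± 0.10. Lysosomal genes (10 of 50 higher, 2 lower) and autophagy genes (5 of 46 higher, 4 lower) had smaller medians, 0.23 and 0.07. GABARAP, a lipid-anchored protein of the autophagosome membrane, rose by 0.69 ± 0.11 and the cargo receptor SQSTM1 by 0.61 ± 0.10, while ATG12, which helps to anchor it, fell by 0.63 ± 0.10 and the protease CTSL by 0.96 ± 0.16.

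Other lists changed less. ATF4 targets (3 higher and 6 lower of 38), glycolysis and hypoxia genes (4 higher and 5 lower of 33), p53 target and apoptosis genes (2 higher and 2 lower of 23), endoplasmic reticulum folding genes (1 higher of 27), cyclins, CDKs and CDK inhibitors (1 higher and 1 lower of 15), mitochondrial messenger RNAs (1 higher of 13) and targets of YAP (1 higher and 5 lower of 22) had medians between -0.40 and 0.17. Among their members MCL1, a survival protein with a short half-life, fell by 1.74 ± 0.29, and the cystine transporter SLC7A11 by 1.75 ± 0.25. NT5E, the ecto-enzyme CD73, had 22.9 to 38.4 CPM against 97.2 to 144 CPM (-2.02 ± 0.15).

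Genes outside the lists were picked for the largest rises and falls among well-measured genes whose groups did not overlap. Their large changes and separated groups therefore follow from that choice. TRIM31, a ubiquitin ligase, had 258 and 211 CPM with hydroxychloroquine, 112 and 113 CPM with the Vps34 inhibitor and 17.1 to 38.4 CPM in the controls (2.60 ± 0.11). ALDH1A1, a retinaldehyde dehydrogenase (2.695 ± 0.16), and the long non-coding RNA LINC01133 (2.701 ± 0.15) rose by as much. KIAA0040 had 11.3 to 16.2 CPM against 100.2 to 161 CPM (-3.17 ± 0.20), FERMT1, the integrin activator kindlin-1, 25.9 to 37.4 CPM against 169.7 to 304 CPM (-2.85 ± 0.15), and LINC02657 5.30 to 15.4 CPM against 48.6 to 88.8 CPM (-2.78 ± 0.24).

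In PANC-1, adding ravoxertinib raised 227 genes (1.80% of the 12627 tested) and lowered 324 (2.57%). ERK targets fell and lipid synthesis genes rose, but genes of replication, mitosis and ribosome assembly were not lowered. The 4 ravoxertinib libraries lay above all 12 controls at 56 genes (0.443%) and below them at 132 (1.05%). These calls leaned on single libraries: their number was 551 with all 4, but 290 without the plate A library of the Vps34 inhibitor, and 353 and 340 without the plate A or plate B library of hydroxychloroquine.

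Of 8 measured ERK targets 5 fell and none rose, with a median of -1.14 beside -0.02 over all genes tested. SPRY4 had 2.68 and 7.77 CPM with hydroxychloroquine and 10.7 and 14.2 CPM with the Vps34 inhibitor, against a lowest, median and highest of 30.1, 42.5 and 61.2 CPM alone (-2.44 ± 0.22, adjusted p = 1.8e-11). DUSP6 had 4.39, 1.52, 4.49 and 3.10 CPM against 11.7 to 22.7 CPM (-2.44 ± 0.37, adjusted p = 9.2e-06). Both genes were again clear of their controls. PHLDA1 fell by 1.18 ± 0.10, CCND1 by 0.96 ± 0.18 and ETV5 by 0.83 ± 0.20. The level of ETV5 was 8.54 and 13.2 CPM with hydroxychloroquine but 18.4 and 31.6 CPM with the Vps34 inhibitor, and the latter reached the controls (22.5 to 39.7 CPM). Without the plate A library of hydroxychloroquine, or without that of the Vps34 inhibitor, ETV5 was not called (-0.68 ± 0.23 and -0.64 ± 0.23, adjusted p = 0.11 and 0.16). EPHA2 (-0.46 ± 0.25, adjusted p = 0.38), SPRY2 (-1.10 ± 0.39, adjusted p = 0.11) and ETV4 (-2.03 ± 0.63, adjusted p = 0.054) did not pass the test, and DUSP4 was under the filter on low counts.

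Of the other feedback genes 4 of 12 fell. DUSP5, a nuclear phosphatase of ERK, had 11.9, 14.3, 11.2 and 24.3 CPM against 27.4 to 89.7 CPM (-1.72 ± 0.21), SPRY1 fell by 1.503 ± 0.31 and ERRFI1 by 0.36 ± 0.11, a call that 6 fits without 1 library lost (adjusted p from 0.053 to 0.34). Immediate early genes fell at 9 of 28 and rose at none. EGR1 had 0.244, 1.01, 0.498 and 0.517 CPM, all under the lowest control value of 1.12 CPM (-2.92 ± 0.51, adjusted p = 8.0e-05). Levels this low rest on a few counts per library, so the gap between 1.01 and 1.12 CPM is not firm. FOSL1, with 323, 375, 420.0 and 364 CPM against 409 to 560.4 CPM alone, fell by only 0.32 ± 0.10 (adjusted p = 0.037), with the library of the Vps34 inhibitor on plate A inside the control range. FOSL1 was not called in 8 fits that left out 1 library (adjusted p from 0.054 to 0.27). KLF6, a zinc finger factor, had 149, 203, 165 and 248 CPM against 294 to 456 CPM (-0.97 ± 0.13).

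Replication and mitotic genes stayed near the control level in PANC-1. Of 44 G1/S genes only RRM2 was called, and it rose: its 279.7, 319, 264 and 255 CPM lay above every control (135 to 202 CPM), with a change of 0.72 ± 0.09 (adjusted p = 1.7e-07). The G1/S median was -0.04. PCNA (0.26 ± 0.10, adjusted p = 0.13) and CDC6, which loads the helicase (0.19 ± 0.18, adjusted p = 0.66), did not pass the test. Of 50 mitotic genes 2 rose and none fell (median 0.14): NUSAP1, a spindle microtubule protein, by 0.51 ± 0.12 and the phosphatase CDC25B by 0.34 ± 0.09. NUSAP1 was not called without the plate A library of the Vps34 inhibitor (0.46 ± 0.14, adjusted p = 0.065), nor CDC25B without that library or either library of hydroxychloroquine (adjusted p from 0.061 to 0.17). CDK1, at 76.8 to 121 CPM against 58.4 to 99.5 CPM, was just outside the threshold (0.33 ± 0.10, adjusted p = 0.052). None of 54 ribosome biogenesis genes was called in either direction (median 0.00).

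**Figure D2:**
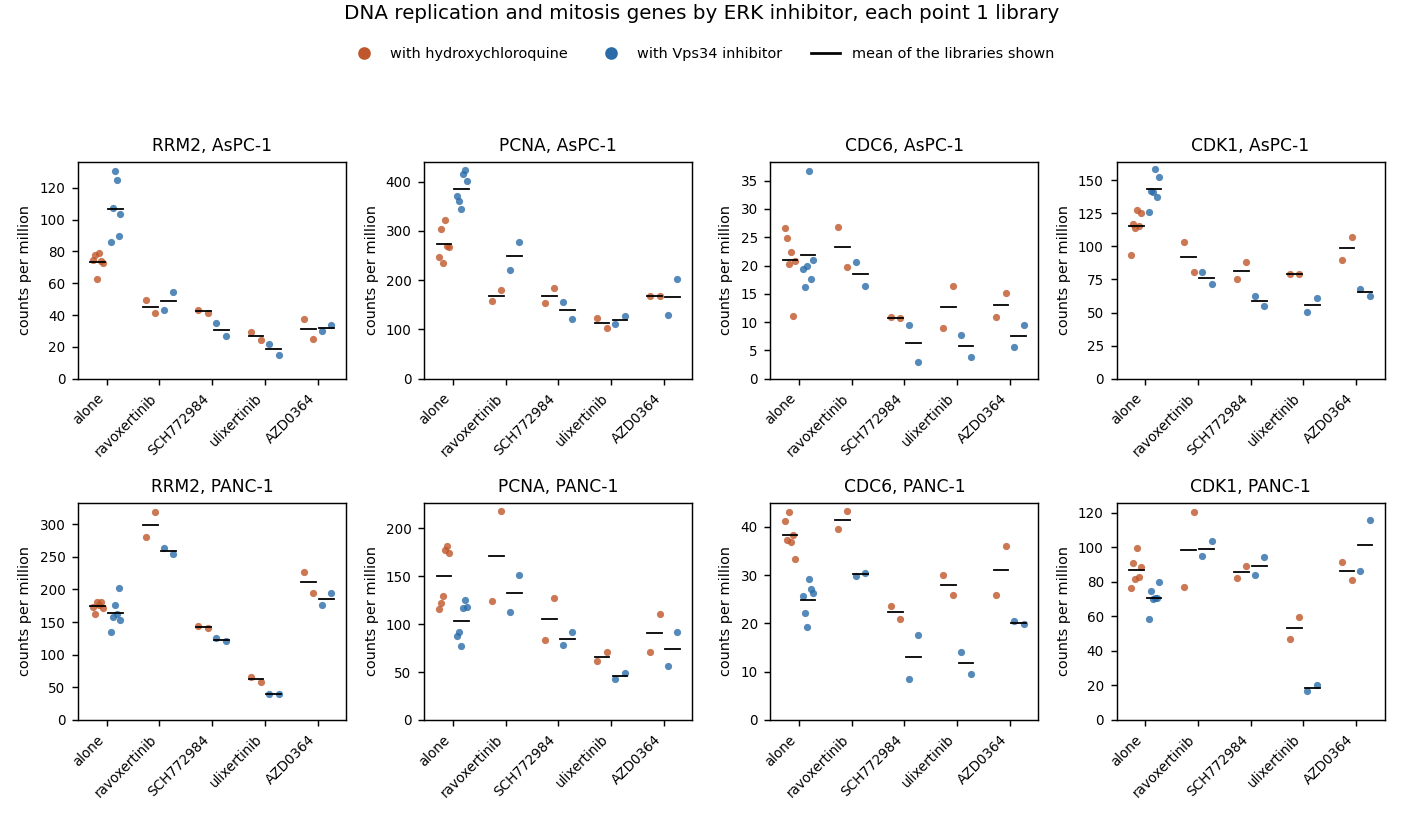
Levels of RRM2, PCNA, CDC6 and CDK1 in CPM (vertical axis, linear from 0) in AsPC-1 and PANC-1, for the autophagy inhibitor alone and each ERK inhibitor (horizontal axis); points are libraries coloured by autophagy inhibitor and each black line is the mean of the libraries of 1 drug and 1 autophagy inhibitor. RRM2 under ravoxertinib lies below the controls in AsPC-1 (41.3 to 54.3 CPM) and above them in PANC-1 (255 to 319 CPM), and ulixertinib is the lowest drug for RRM2 in PANC-1 (39.2 to 66.1 CPM).

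Of 33 lipid synthesis genes 10 rose and none fell (median 0.37). SCD had 666 and 824 CPM with hydroxychloroquine and 545 and 441 CPM with the Vps34 inhibitor against 218 to 427 CPM (0.89 ± 0.10), ACAT2, which makes the first intermediate of sterol synthesis, rose by 0.82 ± 0.12 and TM7SF2, a sterol reductase, by 0.53 ± 0.10. Epithelial genes did not rise: 2 of 20 fell, KRT18 (277 to 322 CPM against 412 to 578 CPM, -0.72 ± 0.07) and AGR2 (-0.49 ± 0.10). Of 22 mesenchymal genes 3 rose, the contractile genes TPM2 (0.33 ± 0.06), MYL9 (0.68 ± 0.13) and TPM1 (0.53 ± 0.12), and 1 fell, CD44 (-0.34 ± 0.07). TPM1 was not called without the plate B library of the Vps34 inhibitor (0.28 ± 0.13, adjusted p = 0.27), nor CD44 without that of hydroxychloroquine (adjusted p = 0.081). VIM had 1558 to 2911 CPM against 2103 to 3352 CPM and did not pass the test (-0.23 ± 0.07, adjusted p = 0.052).

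Other lists held few calls in PANC-1. NRF2 targets (4 higher and 1 lower of 27), ATF4 targets (4 higher and 2 lower of 41), autophagy genes (3 higher of 48), lysosomal genes (3 higher and 1 lower of 50), receptor tyrosine kinases and partners (3 lower of 19), genes of the relay (2 higher and 1 lower of 23), YAP targets (2 higher and 1 lower of 22) and interferon-response genes (1 higher of 38) had medians from -0.19 to 0.23. Cyclins, CDKs and their inhibitors (1 lower of 12), EGF ligands and cytokines (1 higher and 3 lower of 11), glycolysis and hypoxia genes (1 higher and 1 lower of 31), p53 and apoptosis genes (1 higher and 2 lower of 23), mitochondrial messenger RNAs (2 lower of 13) and endoplasmic reticulum folding genes (none of 27) had medians from -0.43 to 0.04. NQO1 rose by 0.56 ± 0.08, PSAT1 of serine synthesis by 0.60 ± 0.09 and NEU1, a lysosomal sialidase, by 0.56 ± 0.10. MKNK2 rose by 0.51 ± 0.08 and BCL2A1, a survival protein, fell by 1.92 ± 0.29.

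The genes named next were picked for the largest rises and falls among well-measured genes with groups apart. Their large changes and separated groups therefore follow from the choice and are not findings in themselves. CSF1, the macrophage growth factor, had 77.8 and 100.5 CPM with hydroxychloroquine and 79.0 and 83.8 CPM with the Vps34 inhibitor against 21.3 to 49.8 CPM (1.22 ± 0.12). MAP2, a microtubule protein of neurons, had 55.6 to 80.5 CPM against 24.7 to 38.7 CPM (1.14 ± 0.10), and ID1, an inhibitor of basic helix-loop-helix factors, 357 to 741 CPM against 153 to 285 CPM (1.11 ± 0.15). UCP2, CA8 and MRAS also rose, by 0.99 ± 0.11, 0.97 ± 0.12 and 0.90 ± 0.18. The Wnt antagonist SFRP1 had 9.29 to 13.5 CPM against 30.8 to 93.0 CPM (-2.07 ± 0.19), the collagen receptor subunit ITGA2 4.73 to 17.8 CPM against 26.1 to 50.9 CPM (-2.02 ± 0.23), the stress cytokine GDF15 17.2 to 65.6 CPM against 73.5 to 341 CPM (-1.89 ± 0.25) and NT5E 24.9 to 42.9 CPM against 82.3 to 155 CPM (-1.75 ± 0.15).

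Taken by autophagy inhibitor, the effect of ravoxertinib was called at similar numbers of genes within each line, on 2 against 6 libraries. In AsPC-1, 531 genes rose (4.16%) and 420 fell (3.29%) under hydroxychloroquine, and 450 rose (3.53%) and 539 fell (4.22%) under the Vps34 inhibitor. In PANC-1 the counts were 90 higher (0.713%) and 144 lower (1.14%), and 71 higher (0.562%) and 91 lower (0.721%). Leaving out 1 of the 2 ravoxertinib libraries cut these totals: in AsPC-1 from 951 to 540 (plate A left out) or 525 (plate B) under hydroxychloroquine and from 989 to 587 or 431 under the Vps34 inhibitor, and in PANC-1 from 234 to 72 or 101 and from 162 to 46 or 92. Of the 9 ERK targets in AsPC-1, 6 fell under hydroxychloroquine (median -1.35) and 7 under the Vps34 inhibitor (median -1.69). SPRY4 changed by -3.52 ± 0.31 and -3.32 ± 0.32. Of the 8 in PANC-1, 5 fell (median -1.36) and 3 fell (median -1.25), and SPRY4 changed by -3.002 ± 0.33 and -1.87 ± 0.30. The difference between these effects in PANC-1, 1.13 ± 0.40, did not pass the test across all genes (95% interval 0.32 to 1.94, unadjusted).

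A test of the difference between the effects under the Vps34 inhibitor and under hydroxychloroquine called 18 genes in AsPC-1 (0.141% of those tested) and 7 in PANC-1 (0.0554%). The 18 became 7 and 9 without the plate A or plate B library of ravoxertinib and hydroxychloroquine, and the 7 became 1 and 3 without those of PANC-1, 2 without the plate A library of the Vps34 inhibitor and 12 without its plate B library. In AsPC-1, ITGB4, the integrin of hemidesmosomes, had 238 and 171 CPM with ravoxertinib and hydroxychloroquine and 74.0 and 67.5 CPM with ravoxertinib and the Vps34 inhibitor, while both sets of controls covered about the same range (163 to 256 and 160.0 to 258 CPM). Its change was -0.14 ± 0.15 under the former and -1.52 ± 0.17 under the latter. SNHG1, a host transcript of small nucleolar RNAs, rose by 0.80 ± 0.18 under hydroxychloroquine and fell by 0.65 ± 0.20 under the Vps34 inhibitor, and the interferon-induced ISG15 likewise rose by 0.74 ± 0.18 and fell by 0.71 ± 0.20. AKR1C2 (3.15 ± 0.10 and 2.28 ± 0.10) and AKR1C3 (2.58 ± 0.12 and 1.39 ± 0.12) rose under both, from controls that differed between the autophagy inhibitors: AKR1C3 was at 206 to 292 CPM under hydroxychloroquine alone and at 477 to 724 CPM under the Vps34 inhibitor alone.

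Most other calls of this test, among the genes named by the rule, rested on 1 library of the 4. In AsPC-1, STAT6 had 179.6 CPM in the library of ravoxertinib and the Vps34 inhibitor on plate B and 28.7 to 46.1 CPM in the other 3. PCDH17 had 1352 CPM and MALT1 379 CPM in the library of the same drugs on plate A, with at most 3.09 and 17.2 CPM in the others. In PANC-1, SUMF2 had 7604 CPM in the plate A library of ravoxertinib and the Vps34 inhibitor and 12.2 to 15.9 CPM in the other 3, and MSX1 had 927.7 CPM there and 35.9 to 46.04 CPM elsewhere. B3GNT7, called in the other direction, had 1231 CPM in the plate A library of ravoxertinib and hydroxychloroquine and at most 13.8 CPM in the others. All 7 calls in PANC-1 had this form. Without the library that stood out, the differences were 0.61 ± 0.35 for STAT6, 3.13 ± 1.99 for PCDH17, 0.13 ± 0.67 for MALT1, -0.14 ± 0.48 for SUMF2, 0.64 ± 0.57 for MSX1 and -0.92 ± 0.93 for B3GNT7, none of which passed the test. Among the genes without such a library, ITGB4 was called whichever library was left out. AKR1C3 was not called without the plate A library of hydroxychloroquine (adjusted p = 0.099), and AKR1C2, SNHG1 and ISG15 were not called without that library (adjusted p = 0.070, 0.24 and 0.12) or without 1 of the Vps34 inhibitor (0.053, 0.056 and 0.11).

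The 3 other ERK inhibitors allow ravoxertinib to be set beside 3 compounds with the same targets. They share their control libraries with ravoxertinib, so the effects are given side by side, and the tests are of ravoxertinib directly against each drug: 3 pairs in each line, with p-values adjusted over all genes and the 3 pairs of the line. The drugs are of different chemical series, and no structural reason can be read from these data. In AsPC-1, ravoxertinib lowered 928 genes against the autophagy inhibitor alone (7.27%), SCH772984 1153 (9.04%), ulixertinib 1387 (10.9%) and AZD0364 1151 (9.02%). In PANC-1 the numbers were 324 (2.57%), 506 (4.01%), 995 (7.88%) and 375 (2.97%).

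In AsPC-1 few differences in ERK targets between ravoxertinib and the other drugs passed the test. All 4 drugs gave SPRY4 changes between -3.26 and -3.45, and ravoxertinib differed from SCH772984 by 0.03 (95% interval -0.48 to 0.55), from ulixertinib by 0.02 (-0.49 to 0.53) and from AZD0364 by -0.15 (-0.65 to 0.34). FOSL1 differed by 0.25 (-0.09 to 0.59), -0.18 (-0.51 to 0.16) and 0.00 (-0.32 to 0.33). Against the mean of the other drugs, none of 9 ERK targets was called (median 0.02), nor against SCH772984 (median -0.13) or AZD0364 (median -0.15). Against ulixertinib 1 was higher, DUSP4 (0.82 ± 0.15, adjusted p = 0.00098), with 7 of 9 differences above 0 and a median of 0.16. Side by side against the autophagy inhibitor alone, the list's median was -1.46 with 7 fallen for ravoxertinib, -1.66 with 7 for SCH772984, -2.39 with 8 for ulixertinib and -1.74 with 7 for AZD0364. Over all genes, 57 were higher under ravoxertinib than under the mean of the other drugs (0.447%) and 62 lower (0.486%), 119 in all. That total was much lower without the plate B library of ravoxertinib and hydroxychloroquine, and without that of the Vps34 inhibitor.

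Among the genes that differed in AsPC-1 were some of replication and a few surface and secreted proteins. Of 44 G1/S genes, 8 were higher under ravoxertinib than under the mean of the others and none lower (median 0.42, beside 0.00 over all genes), and of 50 mitotic genes 1 was higher. CDC6 had 26.8, 19.8, 20.6 and 16.3 CPM, inside the 11.045 to 36.7 CPM of the autophagy inhibitor alone (26.7 CPM without the highest library), where SCH772984 gave 2.96 to 10.9 CPM, ulixertinib 3.76 to 16.5 CPM and AZD0364 5.69 to 15.2 CPM (1.22 ± 0.23 against their mean, adjusted p = 0.0010). H2AZ1, a histone variant, differed by 0.52 ± 0.09, PCNA by 0.51 ± 0.10 and RRM2 by 0.68 ± 0.14. RRM2 was not called without the plate B library of the Vps34 inhibitor (0.59 ± 0.16, adjusted p = 0.11). ID1 had 156 to 219.5 CPM with ravoxertinib, with 101 to 114, 67.6 to 152 and 73.0 to 172 CPM under SCH772984, ulixertinib and AZD0364 (0.78 ± 0.14, adjusted p = 0.00055). Against the autophagy inhibitor alone, neither ID1 (-0.11 ± 0.14) nor CDC6 (-0.05 ± 0.23) was called, whereas each of the other drugs lowered both.

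Genes that rose less with ravoxertinib included ALPP, a placental alkaline phosphatase with close paralogs. It had 28.3 and 27.3 CPM with hydroxychloroquine and 7.84 and 19.4 CPM with the Vps34 inhibitor, against 2.37 to 12.9 CPM alone, 44.9 to 76.8 CPM under SCH772984, at least 29.6 CPM under ulixertinib and 35.7 to 109.5 CPM under AZD0364 (-1.63 ± 0.23 against their mean, adjusted p = 1.6e-05). GPA33, an intestinal surface antigen, had 43.8 to 77.2 CPM with ravoxertinib and 65.7 to 231 CPM with the other drugs (-1.32 ± 0.18), and PLAC8, a cysteine-rich protein, 486 to 760.2 and 781 to 995 CPM (-0.56 ± 0.08). FGF19, a bile acid hormone, was lowered by ravoxertinib (-0.39 ± 0.13) and raised by the others, by 0.66 ± 0.12, 0.39 ± 0.12 and 0.44 ± 0.12 (-0.89 ± 0.13 against their mean). The lower FGF19 against the autophagy inhibitor alone was not called without the plate A library of hydroxychloroquine (-0.27 ± 0.15) or the plate B library of the Vps34 inhibitor (-0.24 ± 0.15), nor without either of 2 control libraries (adjusted p = 0.051 and 0.060). ALPP, GPA33, PLAC8 and FGF19 were each called against all 3 drugs singly. F3, tissue factor, fell with ravoxertinib to 38.1 to 54.0 CPM, against 48.9 to 135 CPM under the other drugs (-0.82 ± 0.16). AKR1C2 was higher with ravoxertinib than with the others (0.42 ± 0.08).

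In AsPC-1 and by single drug, 20 genes stood higher (0.157%) and 30 stood lower (0.235%) under ravoxertinib than under SCH772984, 53 higher (0.415%) and 47 lower (0.368%) than under ulixertinib, and 15 higher (0.118%) and 32 lower (0.251%) than under AZD0364. Single libraries moved these totals: the lowest were 15 of 50 without the plate B library of SCH772984 and hydroxychloroquine, 49 of 100 without that of ravoxertinib and hydroxychloroquine, and 10 of 47 without that of AZD0364 and the Vps34 inhibitor. In a fit of only the groups compared, 10 were higher and 28 lower against ulixertinib. G1/S genes made up 12 of the 53 against ulixertinib, 1 of the 20 against SCH772984 and none of the 15 against AZD0364. The medians of the 44 G1/S genes were 0.77, 0.22 and 0.30.

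In PANC-1 a number of ERK targets stood higher under ravoxertinib. Against the mean of the other drugs, 5 of 8 were higher and none lower (median 0.94, beside 0.00 over all genes), among 270 genes higher (2.14%) and 76 lower (0.602%). DUSP6, at 1.52 to 4.49 CPM, compared with 0 to 1.91 CPM under SCH772984, 0.225 to 1.33 CPM under ulixertinib and 0.713 to 2.98 CPM under AZD0364 (1.79 ± 0.43, adjusted p = 0.011). SPRY4 had 2.68 to 14.2 CPM with ravoxertinib and 1.66 to 5.64 CPM with the others (1.13 ± 0.22), and ETV5 8.54 to 31.6 CPM and 5.05 to 13.5 CPM (1.02 ± 0.20). EPHA2 (0.86 ± 0.24) and PHLDA1 (0.38 ± 0.09) were the other 2. By single drug fewer were called: 3 of 8 against SCH772984 (SPRY4, ETV5 and PHLDA1, list median 1.04), 2 against AZD0364 (SPRY4 and ETV5, 0.92) and 1 against ulixertinib (DUSP6, 0.67). Each of the 5 calls was lost when some single ravoxertinib library was left out: DUSP6 without the plate A library of hydroxychloroquine (1.35 ± 0.51, adjusted p = 0.21) or of the Vps34 inhibitor (1.66 ± 0.51), SPRY4 without the plate B library of hydroxychloroquine (0.78 ± 0.29, adjusted p = 0.23), and ETV5 (0.82 ± 0.24 and 0.78 ± 0.22) and PHLDA1 (adjusted p = 0.12 and 0.059) without either library of plate B. PHLDA1 was also not called without the plate A library of the Vps34 inhibitor (adjusted p = 0.052), and EPHA2 in 13 fits without 1 library (adjusted p from 0.053 to 0.18). The 346 calls over all genes became 121, 201 and 174 without the plate A library of the Vps34 inhibitor and the plate A and plate B libraries of hydroxychloroquine. CCND1 did not pass the test (0.27, 95% interval -0.08 to 0.61), and neither did NT5E (0.13, -0.16 to 0.41), which all 4 drugs lowered. FOSL1, at 323 to 420.0 CPM against 176 to 258 CPM under the other drugs, with no overlap, differed from SCH772984 by 0.78 ± 0.12, from ulixertinib by 0.81 ± 0.12 and from AZD0364 by 0.79 ± 0.12 (adjusted p = 8.2e-06, 3.6e-06 and 6.0e-06).

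The division genes stood higher as well. Of 44 G1/S genes 22, and of 50 mitotic genes 24, were higher under ravoxertinib than under the mean of the other drugs, and none was lower (medians 0.55 and 0.49). RRM2 differed by 1.35 ± 0.09 (adjusted p = 2.2e-15), PCNA by 0.98 ± 0.09 and the kinetochore gene SPC25 by 0.93 ± 0.09. The mean hides a wide spread between the 3 drugs. For G1/S genes, 25 of 44 were higher than under ulixertinib (median 0.82), 12 than under SCH772984 (0.47) and 5 than under AZD0364 (0.34). For mitotic genes the counts were 47, 0 and 1 of 50, so nearly all of that difference was against ulixertinib (median 1.27, beside 0.13 for each of the others). CDK1 differed from ulixertinib by 1.66 ± 0.13, from SCH772984 by 0.17 (95% interval -0.08 to 0.43) and from AZD0364 by 0.08 (-0.18 to 0.33). RRM2 and PCNA were called against each drug: the differences for RRM2 were 1.07 ± 0.12, 2.49 ± 0.13 and 0.50 ± 0.12 from SCH772984, ulixertinib and AZD0364.

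The promoters of RRM2 and PCNA are printed because these genes stood higher under ravoxertinib than under each other drug in PANC-1. In AsPC-1 both were called against the mean of the drugs and against ulixertinib (1.08 ± 0.18 and 0.81 ± 0.12), but neither against SCH772984 (0.38 ± 0.17 and 0.41 ± 0.12) or AZD0364 (0.57 ± 0.17 and 0.30 ± 0.12). Each is again the 250 bases upstream of a RefSeq start. RRM2 is on the plus strand, chr2:10122489-10122738, and the capitals mark CCAAT or its complement, the box bound by NF-Y, at 3 places. This window too lies inside the gene as annotated in GENCODE v29 (10120698 to 10131419). PCNA is on the minus strand, chr20:5126623-5126872, and the capitals mark TTTNNCGC or its complement, a core of E2F sites, at 1 place.
RRM2: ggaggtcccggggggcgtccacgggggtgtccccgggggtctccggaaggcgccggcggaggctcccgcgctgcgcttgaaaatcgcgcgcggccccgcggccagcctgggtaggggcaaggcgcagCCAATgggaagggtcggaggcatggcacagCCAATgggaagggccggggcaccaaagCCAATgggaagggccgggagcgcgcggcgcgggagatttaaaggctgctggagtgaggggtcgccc
PCNA: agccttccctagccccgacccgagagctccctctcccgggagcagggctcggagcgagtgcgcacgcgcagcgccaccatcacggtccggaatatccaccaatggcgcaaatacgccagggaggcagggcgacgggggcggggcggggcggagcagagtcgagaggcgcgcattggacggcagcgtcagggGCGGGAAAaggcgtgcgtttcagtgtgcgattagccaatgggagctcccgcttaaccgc
CCAAT on either strand was in 32% of all windows of this length and TTTNNCGC in 5.92%. The RRM2 window did not hold TTTNNCGC, and the PCNA window also held CCAAT at 3 places. CCGGAA, the ETS core marked in PHLDA1, was also at 1 place in each of these windows and was absent from that of EGR1.

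Genes lower under ravoxertinib than under the other drugs in PANC-1 included MRPS10, a protein of the mitochondrial ribosome. Its 158, 151, 159 and 163 CPM lay below all libraries of the autophagy inhibitor alone (232 to 349 CPM) and of SCH772984 (225 to 283 CPM), ulixertinib (257 to 393 CPM) and AZD0364 (229 to 278 CPM). The difference from the mean of the drugs was -0.81 ± 0.09 (adjusted p = 5.3e-08), and none of the others changed MRPS10 in PANC-1. In AsPC-1 all 4 drugs lowered MRPS10, ravoxertinib by 0.78 ± 0.12 and the others by 0.56 ± 0.11, 0.55 ± 0.11 and 0.54 ± 0.11. KLF6, at 149 to 248 CPM, was likewise below the 254 to 437 CPM of the other drugs in PANC-1 (-0.78 ± 0.13), and called against each of them, though not against SCH772984 without the plate B library of that drug and the Vps34 inhibitor (adjusted p = 0.059).

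The stress gene TRIB3, a pseudokinase induced by ATF4, was not called for ravoxertinib against the autophagy inhibitor alone (-0.25 ± 0.18), with 9.51 and 10.97 CPM under hydroxychloroquine and 29.7 and 37.8 CPM under the Vps34 inhibitor. Ulixertinib raised it to 44.4 to 129 CPM (1.76 ± 0.16), and ravoxertinib differed from ulixertinib by -2.01 ± 0.21, from SCH772984 by -0.79 ± 0.21 and from AZD0364 by -0.15 (95% interval -0.58 to 0.29). Of 41 ATF4 targets, 18 were lower and 1 higher than under ulixertinib (median -0.59), 2 lower than under SCH772984 and none in either direction against AZD0364. By single drug in PANC-1, 97 genes were higher (0.768%) and 57 lower (0.451%) than under SCH772984, 463 higher (3.67%) and 231 lower (1.83%) than under ulixertinib, and 40 higher (0.317%) and 20 lower (0.158%) than under AZD0364. In a fit of only the groups compared, 30 were higher and 48 lower against SCH772984, and 10 and 13 against AZD0364. The lowest totals with 1 library left out were 17 of 154 (without SCH772984 and hydroxychloroquine, plate B), 458 of 694 (without ravoxertinib and the Vps34 inhibitor, plate A) and 4 of 60 (without AZD0364 and hydroxychloroquine, plate B).

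**Figure D3:**
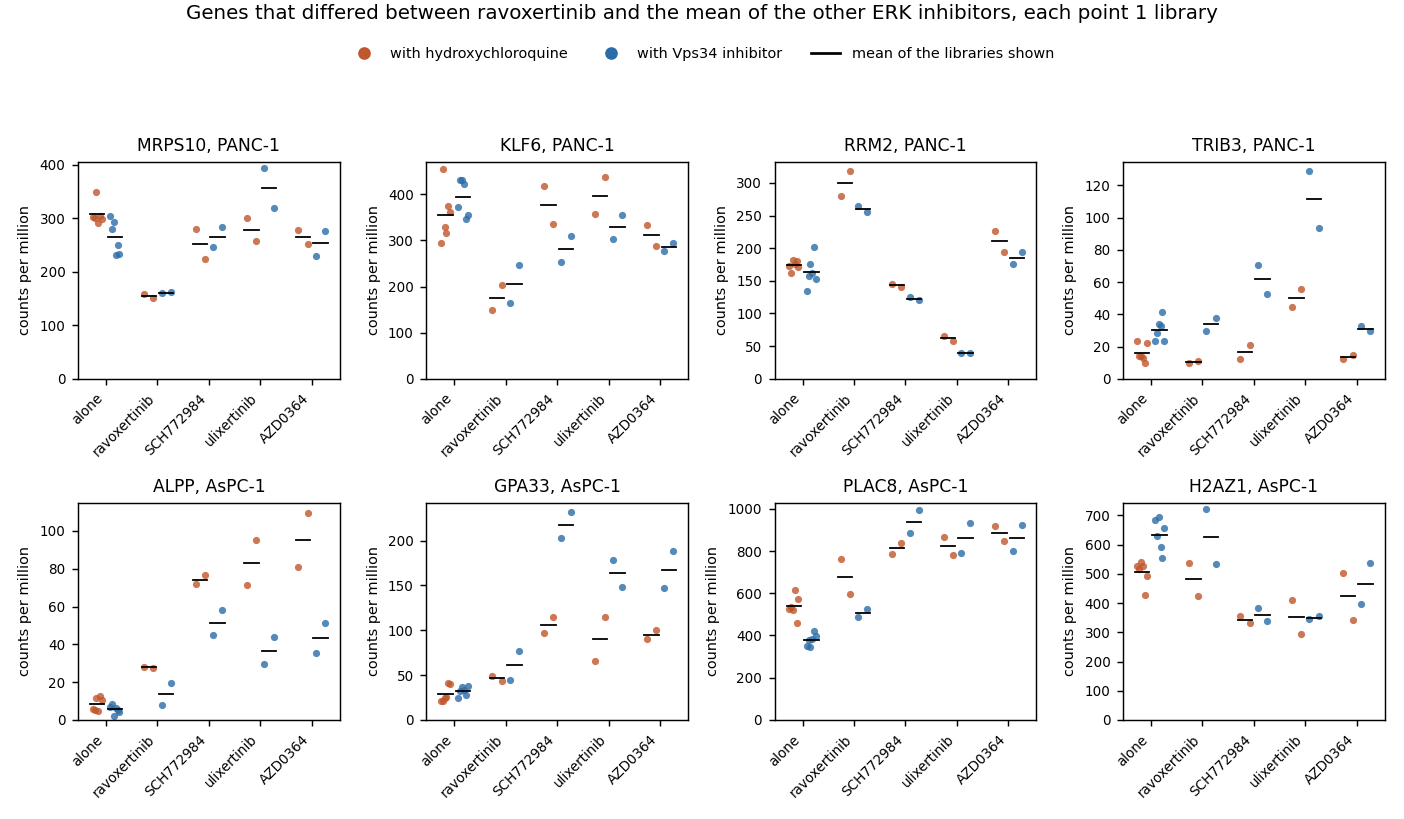
Levels in CPM (vertical axis, linear from 0) of genes that differed between ravoxertinib and the mean of the other ERK inhibitors. These are MRPS10, KLF6, RRM2 and TRIB3 in PANC-1 and ALPP, GPA33, PLAC8 and H2AZ1 in AsPC-1. TRIB3 was not called against AZD0364. Points are libraries coloured by autophagy inhibitor and each black line is the mean of the libraries of 1 drug and 1 autophagy inhibitor; MRPS10 under ravoxertinib (151 to 163 CPM) lies below every other library drawn.

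**Figure D4:**
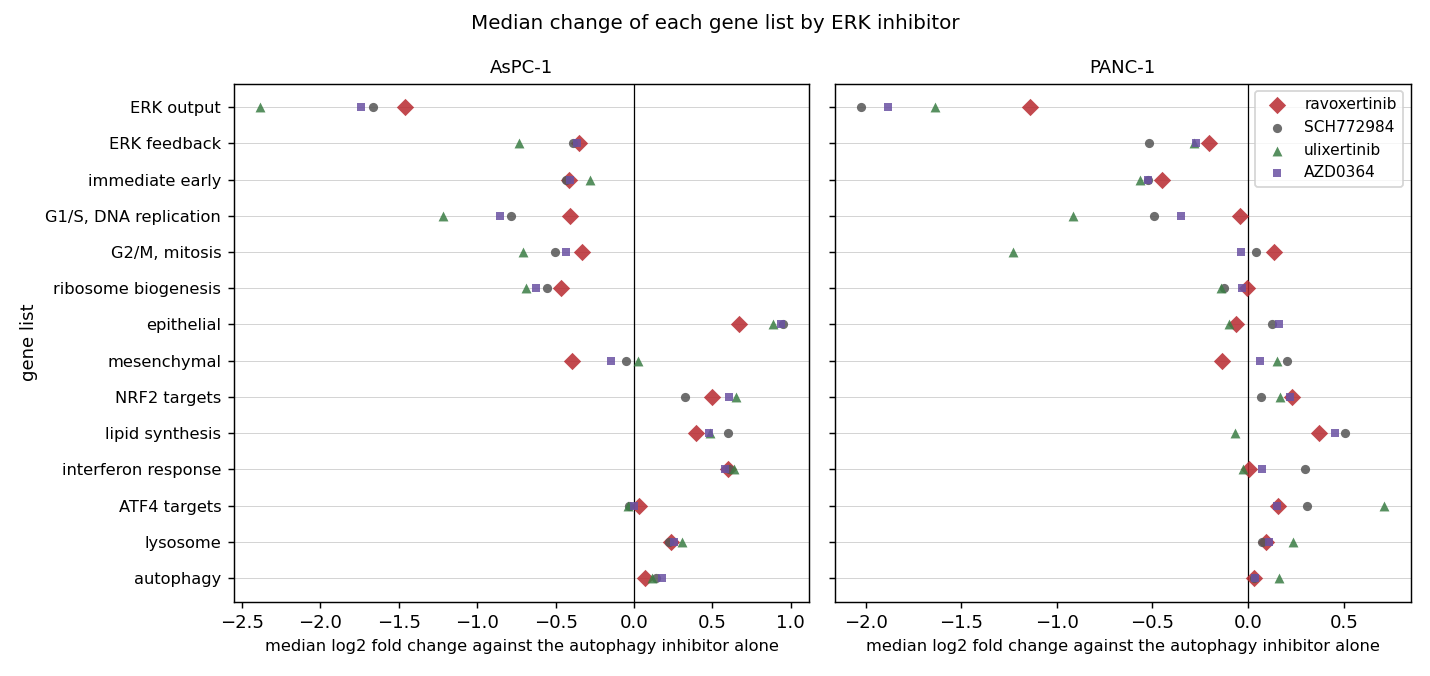
Median log2 fold change of 14 gene lists (rows) against the autophagy inhibitor alone, for each of the 4 ERK inhibitors (symbols) in AsPC-1 and PANC-1 (panels). The 4 effects share their control libraries; in PANC-1 the ERK target median is -1.14 for ravoxertinib and between -1.64 and -2.02 for the others, and the mitotic list is near 0 except under ulixertinib.

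A fit of both lines together asked where the effect of ravoxertinib differed between AsPC-1 and PANC-1. It called 312 of 13960 genes as changed more upward in AsPC-1 (2.23%) and 419 as changed more downward (3.0%), 731 in all. The total was 463 without the plate B library of ravoxertinib and hydroxychloroquine of AsPC-1, 470 without that of PANC-1 and 458 without the plate A library of ravoxertinib and the Vps34 inhibitor of PANC-1. Of 28 epithelial genes, 12 were in the former group and none in the latter (median difference 0.91, beside -0.03 over all genes), and AGR2 gave a difference of 3.43 ± 0.22 (adjusted p = 6.3e-23). KRT18 rose in AsPC-1 (0.51 ± 0.06) and fell in PANC-1 (-0.72 ± 0.07), and SPNS2, a transporter of sphingosine-1-phosphate, rose by 1.86 ± 0.18 and fell by 2.16 ± 0.22. TM4SF1, a tetraspanin-like surface protein (-0.00 ± 0.10 and -1.15 ± 0.08), and CLMN (0.26 ± 0.14 and -1.35 ± 0.11) changed in PANC-1 alone by their own tests, and the difference was called for both.

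On the other side were FOSL1 (difference -2.83 ± 0.17, adjusted p = 9.6e-25), VIM (-1.14 ± 0.10), the receptor-like gene DCBLD2 (-1.79 ± 0.16), RRM2 (-1.64 ± 0.17) and the transcriptional corepressor DRAP1 (-0.92 ± 0.10). Of 44 G1/S genes 6, of 50 mitotic genes 10 and of 54 ribosome biogenesis genes 14 were more downward in AsPC-1 and none more upward (median differences -0.38, -0.38 and -0.48). Of 10 ERK targets 2 differed, SPRY4 (-0.99 ± 0.29, adjusted p = 0.025) and PHLDA1 (-0.87 ± 0.15), while DUSP6 (-0.55, 95% interval -1.43 to 0.33), CCND1 (-0.11, -0.62 to 0.39) and ETV5 (-0.64, -1.405 to 0.12) did not pass the test. SCD, which rose in both lines, missed the threshold (0.51, 0.17 to 0.84, adjusted p = 0.060), and lipid synthesis as a list gave 2 more upward of 34 (median 0.05). Interferon-response genes gave 9 more upward and 1 more downward of 52. Line and dose cannot be told apart here, since each drug's concentration was set by the viability of the cells.

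**Figure D5:**
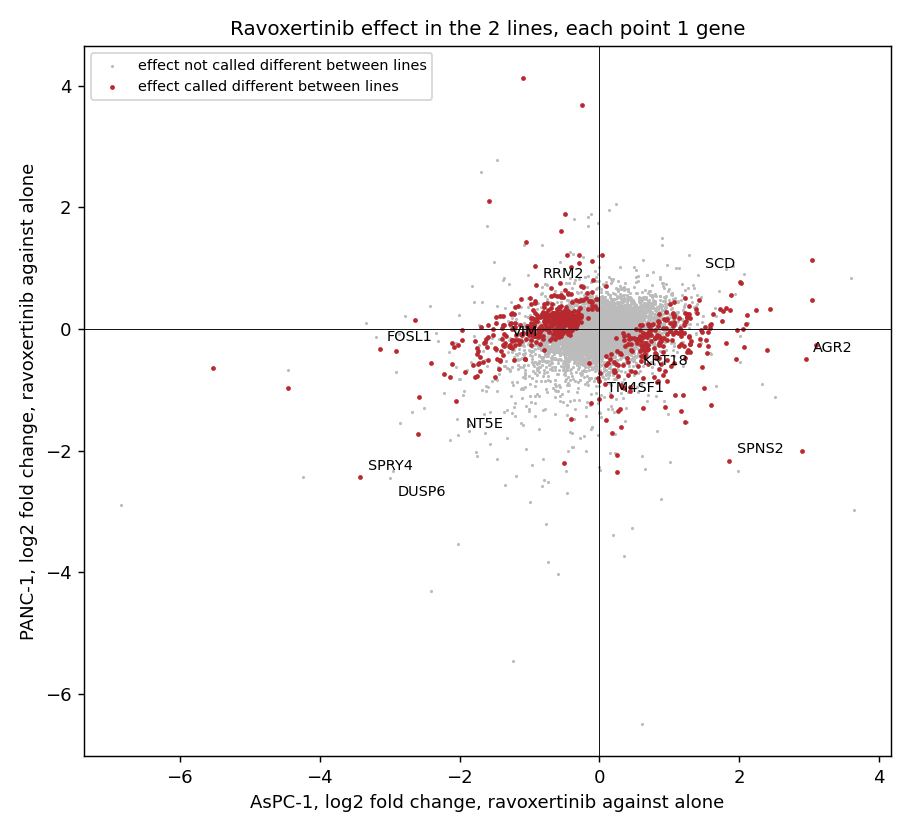
Log2 fold change of ravoxertinib against the autophagy inhibitor alone in PANC-1 (vertical axis) against AsPC-1 (horizontal axis) for 8221 genes that reached an average log2 CPM of 3 in the joint fit; each point is a gene and coloured points are the 644 called different between the lines. AGR2 and SPNS2 lie to the right with positive changes in AsPC-1 and negative ones in PANC-1, and FOSL1 and VIM lie to the left near the middle of the vertical axis.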

How the data were processed

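The deposited values are counts per gene symbol, whole numbers with no normalization by the authors; kallisto 0.44.0 and GRCh38 are named in the submitters' processing notes, and the step from transcripts to genes is not given in the sources used here. Libraries were made by PLATE-Seq, per the labels' protocols, a method known to pool barcoded wells. The file held 25435 genes, 4605 of them with no count, and no 2 libraries were identical. Depth, given above, limits genes of low level.

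For each line, edgeR 4.0.16 (R 4.3.3; TMM, filterByExpr by group, robust quasi-likelihood fit) took 30 drug groups and plate over all 68 libraries, with 37 residual degrees of freedom; the ravoxertinib groups have 2 libraries each, so the spread was estimated over all groups. A fit of both lines together tested the difference between lines. P-values for single drugs were adjusted over all genes and the 3 drugs. DESeq2 1.42.0 was an alternative, beside other size factors, filters, sample sets, plates taken singly, no plate term and each library left out in turn.

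The plate is read from the titles. In groups given a kinase inhibitor, replicate 1 was on plate A and replicate 2 on plate B. With the autophagy inhibitor alone, replicates 1 to 3 were on plate A and 4 to 6 on plate B. Deviations from the group means correlated weakly between same-plate libraries of different groups (median r of 0.031 over 45 group pairs in AsPC-1 and 0.069 in PANC-1), while plate itself was called at 1604 of 12761 and 2082 of 12627 genes.

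The drug groups, gene lists and tests were chosen with earlier results of these data known, so their counts are descriptions. Named genes are all ERK target list members, up to 3 called genes of each other list with the smallest adjusted p, the 6 largest rises and falls among genes averaging 4 or more in log2 CPM with groups apart, and up to 5 genes per direction of each other comparison averaging 3 or more; some genes that fall under this rule are not reported here. Sequences are from RefSeq (GRCh38.p14).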

Additional observations from a re-analysis of the deposited data

Results flagged for a closer look

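Among the 166 sets of 6 control libraries looked at (named genes, 1 line and 1 autophagy inhibitor alone), 7 had a library further from the rest than a gap test allows; chance flags about 1 set in 20. In AsPC-1, RRM2 was at 62.9 CPM in 1 library of hydroxychloroquine alone, with the others at 73.0 to 78.9 CPM, and SNHG1 at 117 CPM in 1, with the others at 92.4 to 100.6 CPM. CDC6 was at 36.7 CPM in 1 library of the Vps34 inhibitor alone, with the others at 16.2 to 20.9 CPM. In PANC-1, MRPS10 was at 349 CPM in 1 library of hydroxychloroquine alone (others 291 to 303 CPM). Under the Vps34 inhibitor alone in PANC-1, 1 library had 89.7 CPM of DUSP5 (others 51.8 to 64.1 CPM), 341 CPM of GDF15 (97.5 to 187 CPM) and 93.0 CPM of SFRP1 (44.6 to 57.1 CPM), for each gene on its own and not necessarily in the same well.

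The effect of ravoxertinib under the Vps34 inhibitor minus that under hydroxychloroquine passed edgeR's interaction test, and the differences in log2 were as follows. In AsPC-1 they were -1.38 for ITGB4, -1.19 for AKR1C3, -0.88 for AKR1C2, -1.44 for SNHG1 and -1.45 for ISG15. There, 1.91 for STAT6, 4.29 for MALT1, 9.93 for PCDH17, 2.14 for BCDIN3D and 7.39 for FAM124A rested on 1 library each. In PANC-1, SUMF2 (7.29), MSX1 (4.05), MAPKBP1 (6.90), PXYLP1 (4.83), TRIM38 (7.92), B3GNT7 (-6.37) and PLAG1 (-6.28) all did.

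The effect in AsPC-1 minus that in PANC-1 passed the test of the difference at AGR2 (3.43), SPNS2 (4.01), KRT18 (1.22), CLMN (1.60) and TM4SF1 (1.14), and in the other direction at FOSL1 (-2.83), VIM (-1.14), DCBLD2 (-1.79), RRM2 (-1.64) and DRAP1 (-0.92).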

How the results depend on the processing

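Every count of called genes below is from edgeR unless DESeq2 is named. The largest moves came from fewer libraries. Within plate A or plate B, ravoxertinib against the autophagy inhibitor alone gave 1129 or 989 calls in AsPC-1 and 126 or 79 in PANC-1 (1876 and 551 with both plates). Under hydroxychloroquine these were 533 or 345 and 78 or 30, and under the Vps34 inhibitor 432 or 424 and 38 or 4. Against the mean of the other drugs they were 42 or 188 and 58 or 23, against SCH772984 31 or 87 and 26 or 20, against AZD0364 28 or 90 and 21 or 9. Against ulixertinib they were 22 or 144 in AsPC-1 (99 of the 144 higher) and 167 or 76 in PANC-1 (129 and 64 higher). The difference between autophagy inhibitors gave 32 on plate A in AsPC-1 and 25 or 0 in PANC-1, and the difference between lines 178 or 225.

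With DESeq2 the counts that moved were 32 for the difference between autophagy inhibitors in AsPC-1 (16 of them higher, against 7 of 18), 179 against the mean of the other drugs, 95, 174 and 100 against SCH772984, ulixertinib and AZD0364, and in PANC-1 100 against AZD0364 (52 higher, against 40 of 60). Fits with only the groups compared gave 5, 42, 16, 38 and 19 in AsPC-1 (autophagy inhibitor difference, mean of the other drugs, SCH772984, ulixertinib, AZD0364) and 0, 191, 78, 461 and 23 in PANC-1. There the share of higher calls fell: in AsPC-1, 11 of 42, 4 of 16, 10 of 38 and 1 of 19 were higher (57 of 119, 20 of 50, 53 of 100 and 15 of 47 with all groups) and none of the 5, and in PANC-1 30 of 78 and 10 of 23 against SCH772984 and AZD0364 (97 of 154 and 40 of 60). For the PANC-1 difference called at no gene on plate B or in this fit, the edgeR fit of all groups had 479 genes at an unadjusted p under 0.05 and DESeq2 called 9. Without the filter on low counts, 31 (AsPC-1) and 39 (PANC-1) genes were called against AZD0364 and 94 against SCH772984 in PANC-1. Without the plate term as replicate block, counts were 10, 28, 58 and 19 in AsPC-1 (difference between autophagy inhibitors, SCH772984, ulixertinib, AZD0364) and 90 and 37 in PANC-1 (SCH772984, AZD0364); it moved no other count by over 1.5 times.

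With 1 library left out, AsPC-1 counts ranged over 1312 to 1868 against the autophagy inhibitor alone, 525 to 930 under hydroxychloroquine, 431 to 990 under the Vps34 inhibitor, 7 to 22 for their difference, 45 to 152 against the mean of the drugs, and 15 to 49, 49 to 122 and 10 to 57 against SCH772984, ulixertinib and AZD0364. In PANC-1 they were 290 to 574, 72 to 224, 46 to 166, 1 to 12, 121 to 345, 17 to 98, 458 to 727 and 4 to 50, and for the difference between lines 458 to 791. A ravoxertinib group then keeps 1 library, assumed to vary like the others.

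Changes of sign were followed only for genes called in the fit of all groups, and these genes were not called after changing sign. The range given is over fits with 1 library left out. Against the autophagy inhibitor alone in AsPC-1 these were CALR (-0.28 on plate A), MALT1 (-0.31 on plate B, range -0.10 to 2.48) and FAM124A (-2.12 on plate A, range -1.01 to 3.69). In PANC-1 they were ANKRD1 (range -0.25 to 2.09), SUMF2 (-0.032 to 4.21), MSX1 (-0.23 on plate B, range -0.28 to 1.92), MAPKBP1 (-0.26, -0.16 to 3.94), PXYLP1 (-0.36, -0.40 to 2.40) and B3GNT7 (-0.89, -0.99 to 2.26). Against the mean of the other drugs in AsPC-1 they were STAT6 (range -0.0076 to 0.99), MALT1 (-0.38 on plate B, -0.37 to 2.21), BCDIN3D (-0.095 on plate B, -0.17 to 1.41), FAM124A (-1.33 on plate A, -0.34 to 4.35) and CPEB1 (-0.51 on plate A). In PANC-1, plate B gave -0.071 for SUMF2, -0.015 for MSX1, -0.77 for MAPKBP1 (range -0.35 to 3.74) and -0.76 for B3GNT7 (range -0.70 to 2.55). For the difference between autophagy inhibitors they were BCDIN3D (-0.18 on plate B, -0.14 to 3.02), FAM124A (range -1.21 to 9.25), SUMF2 (-0.011 on plate B, -0.14 to 8.35) and MAPKBP1 (range -0.20 to 8.01), and against AZD0364 SUMF2 (-0.081 on plate B). Of 749 results for single genes, 746 were graded unchanged with other size factors. Direction entered that grade only for results called in the fit of all groups. In fits of only the groups compared, 80 results lost their call. Called results changed sign at 4 on plate A and 14 on plate B, where each ravoxertinib group holds 1 library. The cause of these moves was not tested, beyond the smaller number of libraries in the plate and left-out fits.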
